A study of Mus musculus with 4 samples.

Results

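The subject is the set of N6-methyladenosine (m6A) sites in genes that were listed after dTAG13, given to degrade tagged METTL3, and not without it. The members were chosen by their listing in the site tables of 4 GLORI libraries from mouse retinal organoids. A member lay in a named nuclear gene, was listed in both dTAG13 libraries with at least 20 A and G reads in each, and was listed in neither untreated library. This gave 7392 sites in 4324 genes, of 832800 genic sites and 1076788 sites in all listed in any library. The reverse set, listed in both untreated libraries with at least 20 reads in each and in neither dTAG13 library, held 19200 sites in 7560 genes. Because the listing and the reads chose both sets, their numbers and levels are given as a description, with no test.

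All organoids came from the Rx:GFP line, a retinal reporter line, with FKBP12F36V-HA knocked in at the C-terminus of the endogenous Mettl3 gene. The untreated group was 2 libraries of day 6 organoids without dTAG13 (0 h), and the dTAG13 group was 2 libraries of day 6 organoids after 8 h in 125 nM dTAG13. The controls thus carried the degron too, all organoids grew in medium with AGN, and the labels give the 4 samples 1 shared batch. The loss of METTL3 protein is not measured in these libraries: the gene coverage of Mettl3, whose mRNA the degron does not target, was 60.7 and 59.4 without and 64.4 and 61.8 with dTAG13. The genotype field names another Mettl gene for 3 of the 4 samples, while the series title and the growth protocol name Mettl3 for all. Nothing in the labels says whether the 2 libraries of a group came from separate cultures, so p-values measure the spread between these libraries, which may be technical.

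METTL3 is the catalytic subunit of the complex that methylates most m6A of mRNA, with METTL14 and WTAP as partners. YTH-domain proteins read the mark, and in many transcripts it speeds decay. A degron such as FKBP12F36V lets a small molecule, here dTAG13, send the tagged protein to the proteasome within hours. Methyl groups already on an mRNA stay until the mRNA decays or is demethylated, and METTL16, a separate enzyme that does not need METTL3, methylates a few hairpins, among them those at the 3' end of Mat2a.

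In GLORI, glyoxal and nitrite convert unmethylated A to inosine, read as G, and m6A is still read as A. The level of a site is its A reads as a percentage of all reads that show A or G there. The unconverted share of a gene, 1 minus its deposited conversion rate, is the background that a level has to exceed. The tables list called sites: the lowest values in each library were 10% for the level, 15 for all reads and 5 for those showing A. A position absent from a table can be unmethylated, below these limits or uncovered, so a dTAG13-only site has no measured untreated level. The letters around the sites were not analysed here, and positions are given as the tables list them.

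The libraries listed 178635 to 272140 genic sites each, with a median of 87 to 112 reads per site. Retinal progenitor genes were present: all 11 genes of a retinal regulator list (Fgf15, Hes1, Lhx2, Nr2e1, Otx2, Pax6, Rax, Sfrp2, Six3, Six6 and Sox2) had listed sites in every library. Of markers of other cell types, the mesoderm genes T and Mesp1 were listed in no library. The pluripotency genes Pou5f1, Nanog, Zfp42 and Esrrb, the pigment epithelium gene Mitf and the telencephalon gene Emx2 were listed in all 4.

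Few sites recurred between any pair of libraries, and the dTAG13 pair had the fewest of its own. It shared 10807 genic sites at 20 or more reads, of which 7392 (68.4%) were listed in neither untreated library and 3415 were listed in at least 1 of them. The members made up 4.34% of the genic sites with 20 reads in dTAG13 replicate 1 and 3.79% of those in dTAG13 replicate 2. Counted the same way, the 4 pairs of 1 untreated and 1 dTAG13 library each had 8399 to 9395 sites that neither of the other libraries listed. The dTAG13-only set was thus smaller than each of these mixed sets, and it was 0.385 of the untreated-only set. Fewer sites were listed in the dTAG13 libraries (170282 and 194885 genic sites with 20 reads) than in the untreated ones (248700 and 260679), which moves with these numbers, and its part in them was not tested.

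**Figure D1:**
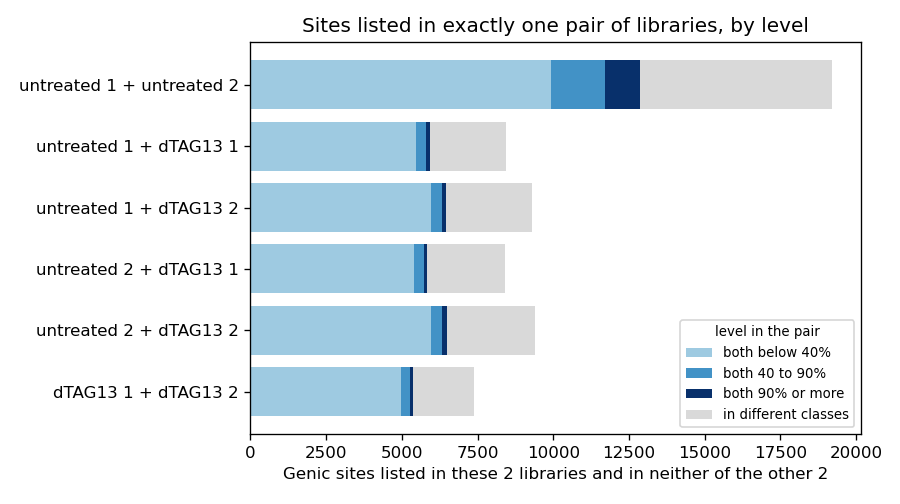
Number of genic sites with at least 20 reads listed in exactly one pair of libraries (x axis), for all 6 pairs (y axis), split by the level in that pair. The dTAG13 pair has the shortest bar, at 7392 sites, and the untreated pair the longest, at 19200.

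Most members were low. In dTAG13 replicate 1 the median level was 21.1% (quartiles 14.3% and 35.6%), and 5808 sites (78.6%) lay below 40%. In dTAG13 replicate 2 the median was 19.9% (13.6% and 34.2%), and 5947 sites (80.5%) lay below 40%. The mean of the 2 medians was 20.5% ± 0.82 (SD, n = 2). Both libraries placed 4977 members (67.3%, Wilson 95% interval 66.3 to 68.4%) below 40% and 2145 (29.0%, 28.0 to 30.1%) below 20%. High levels in both were rare: 277 members (3.75%) had 40 to 90% and 106 (1.43%, 1.19 to 1.73%) had 90% or more. Of the untreated-only sites, 51.7% were below 40%, 9.38% were at 40 to 90% and 5.85% (5.53 to 6.20%) at 90% or more in both untreated libraries. The 4 mixed sets were like the dTAG13-only set, with 63.5 to 64.7%, 3.70 to 4.13% and 1.27 to 1.85%. All intervals cover counting error over sites and not the spread between libraries.

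The members' levels stood above the background of their genes, as the listing of a site requires, so only the size of the excess is described. The median unconverted share of the host gene was 3.10% in dTAG13 replicate 1 and 3.25% in dTAG13 replicate 2. The median site level was 6.75 and 6.14 times that share, and the median excess was 17.7 and 16.5 percentage points. The smallest excess was 4.85 and 3.57 points, and 1476 (20.0%) and 1712 (23.2%) of the members exceeded the gene's unconverted share by less than 10 points. Untreated-only sites had a median excess of 24.1 and 22.8 points over unconverted shares of 4.12% and 3.76%. The excess was thus larger at the untreated-only sites.

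**Figure D2:**
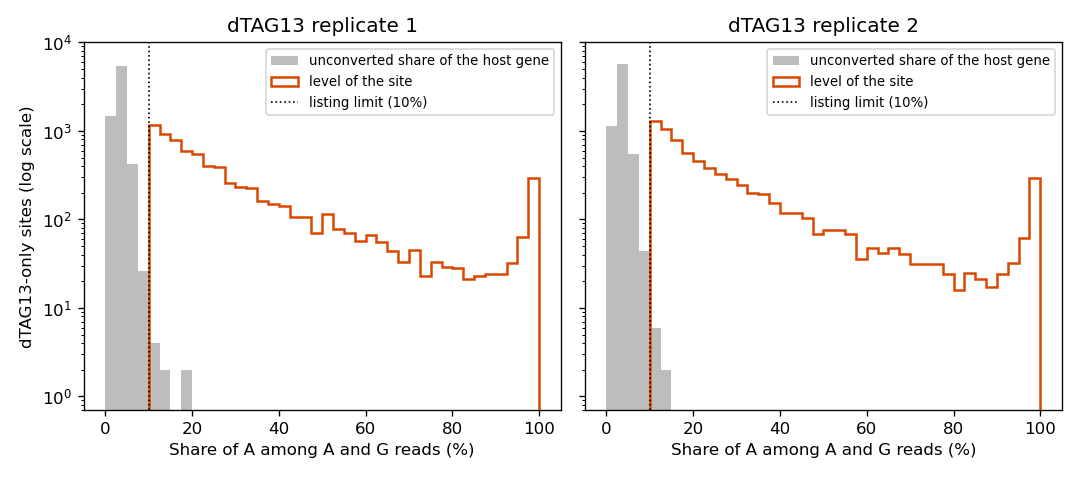
Distribution of the level of the 7392 dTAG13-only sites (orange line) and of the unconverted share of their host genes (grey) in each dTAG13 library, in bins of the share of A among A and G reads, with a logarithmic count axis. The levels pile up above the listing limit of 10% and have a second, small group near 100%.

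The replicates gave similar medians but often different levels at the same site. The 2 dTAG13 levels of a member differed by a median of 9.40 points, 3838 members (51.9%) were within 10 points, and 655 (8.86%) were over 50 points apart. At 612 members 1 library had 90% or more and the other did not, and at 381 of these the other was below 40%. The high library was dTAG13 replicate 1 at 310 and dTAG13 replicate 2 at 302, so neither library carried these sites alone. Across the 7392 members Pearson's r between the replicates was 0.35 and Spearman's rank correlation 0.32. Across the 19200 untreated-only sites they were 0.57 and 0.53. The points of each correlation share 2 libraries, and many share a gene.

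The sets also differed at matched depth. Among members with 200 or more reads in the shallower library (1825 sites), the replicates differed by a median of 4.93 points, r was 0.21 and no site had 90% or more in both. Among untreated-only sites of that depth (5143), the median difference was 6.29 points, r was 0.73 and 59 sites had 90% or more in both. In the shallowest class, 20 to 49 reads, the members (1462) differed by 24.9 points and 88 of the 106 near-complete members lay there. The near-complete members had a median of 30.5 reads in the shallower library, against 144 for those below 40% in both. At the read minimum itself, the 227 members with 20 to 24 reads in the shallower library had median levels of 60.0% and 52.4%, and the 272 sites left out with 15 to 19 reads had 77.8% and 61.9%. The fewest A reads at a listed site were 5, so a site with few reads was listed only at a higher level. Part of the rise in level at low depth is thus set by the listing.

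**Figure D3:**
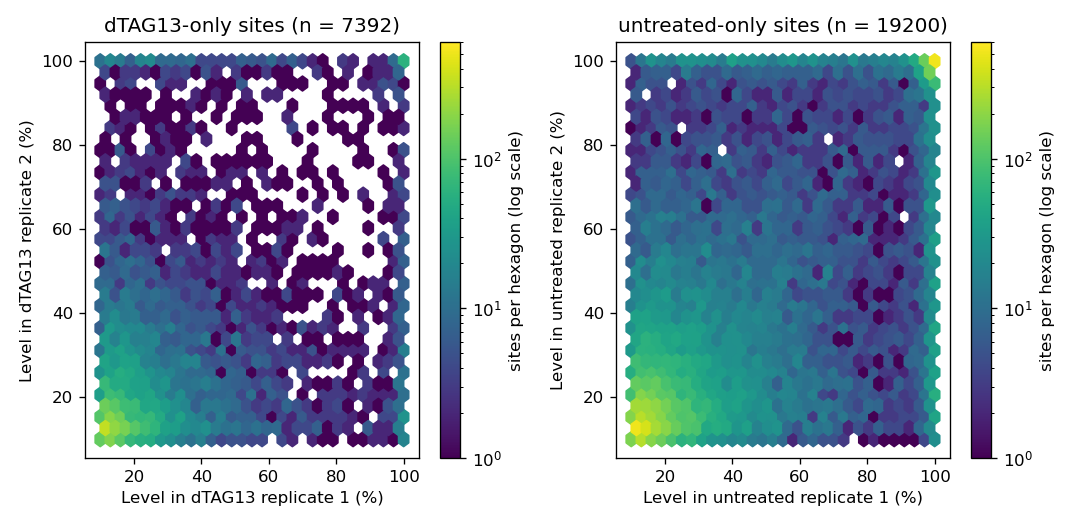
Level of each site in replicate 1 (x axis) against replicate 2 (y axis), in percent, for the dTAG13-only sites in the dTAG13 libraries (left) and the untreated-only sites in the untreated libraries (right), with the number of sites per hexagon on a log scale. The untreated-only sites fill the diagonal up to 100%, and the dTAG13-only sites are concentrated in the low corner.

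The 10 members with the highest mean level, at 50 or more reads in each dTAG13 library and 1 per gene, had 99.1% to 100% in both dTAG13 libraries. The site with most reads among those at 100% in both was chr9:103058756 (plus strand) in Rab6b, a small GTPase of Golgi transport, with 130 of 130 and 330 of 330 reads as A. The Wilson 95% lower bounds were 97.1% and 98.8%. Neither untreated library listed it, although untreated replicate 2 listed a site of 15% with 187 reads 61 bases away. In Abraxas2, a scaffold of a deubiquitinase complex, chr7:132485954 (plus strand) had 142 of 142 and 124 of 124 A reads. Here both untreated libraries listed sites nearby, the nearest at 57 and 34 bases, of up to 100% (untreated replicate 1) and 81.8% (untreated replicate 2) within 100 bases.

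Gadd45a, a gene induced by DNA damage and other stress, had chr6:67013678 (minus strand) with 74 of 74 and 70 of 70 A reads. Untreated replicate 2 listed a different site of Gadd45a 48 bases away at 100% with 39 reads. Eif2ak4 encodes GCN2, the kinase that senses amino acid shortage, and its site at chr2:118272541 (plus strand) had 90 of 90 and 54 of 54 A reads. Untreated replicate 2 listed a site of 91.7% with 72 reads 22 bases away. Others of the 10 lay in Arhgap45 (a GTPase-activating protein), Wdr13, Atg4b (an autophagy protease), Ppp6r1 (a subunit of protein phosphatase 6) and Ap5m1 (an adaptor complex subunit). Their listed surroundings differed. Both untreated libraries listed a site within 30 bases of the member in Atg4b, while Arhgap45 had no other listed site within 100 bases in any library.

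The 5 deepest members were low. At chr9:78385915 (minus strand) in Eef1a1, translation elongation factor 1A, the level was 31.4% of 7432 reads and 24.9% of 10553 reads. In Hnrnpa0, at chr13:58275025 (minus strand), it was 30.0% of 2817 and 21.3% of 4422 reads. In Ptma, prothymosin, chr1:86458293 (plus strand) had 11.1% of 3732 and 15.1% of 4569 reads, and both untreated libraries listed the neighbouring base. Aldoa, a glycolytic enzyme gene, had 11.1% of 5162 and 13.0% of 7061 reads at chr7:126398233 (minus strand). The predicted gene Gm10076 had 11.8% of 15381 and 13.4% of 23441 reads at chr14:105919452 (plus strand). At 3 of these 5 sites the level was within 6 points of the listing limit in both libraries. Reads of such abundant genes can be shared with processed copies, so these sites are uncertain.

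For comparison, the 5 untreated-only sites with the highest level were at 100% in both untreated libraries. They lay in Btd (330 and 251 reads, chr14:31388851), Gm10130, Rit1 (305 and 183 reads, chr3:88636702), Ikbkb (190 and 174 reads) and Duxbl1. The dTAG13 libraries listed other sites of each of these genes, with the nearest in each library 48 to 438 bases away.

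Most members lay close to a site listed without dTAG13. The nearest untreated site of the same gene and strand lay a median of 14 bases from a member (quartiles 5 and 35), and 369 members were 1 base from one. Of the 7392 members, 6171 (83.5%, Wilson 95% interval 82.6 to 84.3%) had an untreated site within 50 bases, 3077 (41.6%) had one within 10 and 14 lay in genes with no untreated site. Near-complete members were more isolated: 58.5% of the 106 had an untreated site within 50 bases, against 85.0% of those below 40% in both libraries. The reverse set had the same order, with a dTAG13 site within 50 bases of 49.9% and 78.1% of these classes. Near-complete members were also shallower (median 30.5 against 144 reads in the shallower library), and the part of depth was not tested. Taken singly, untreated replicate 1 had a site within 50 bases of 64.2% of the members and untreated replicate 2 of 64.6%. The dTAG13 libraries themselves had another site within 50 bases of 71.3% and 72.4% of the members, which is more than either untreated library.

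Closeness was not particular to this set. Sites of the reverse set had a dTAG13 site within 50 bases in 71.5% (70.8 to 72.1%), with fewer sites listed in those tables to be near. Genic sites that 1 dTAG13 library alone listed, with 20 or more reads, had an untreated site within 50 bases in 73.5% (dTAG13 replicate 1, 140489 sites) and 71.5% (dTAG13 replicate 2, 162861 sites). Their median reads were 86 and 109, against 129 and 185 at the members. Members were thus deeper and lay more often near an untreated site than sites of a single dTAG13 library. Depth moved with closeness here, and its part was not tested.

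**Figure D4:**
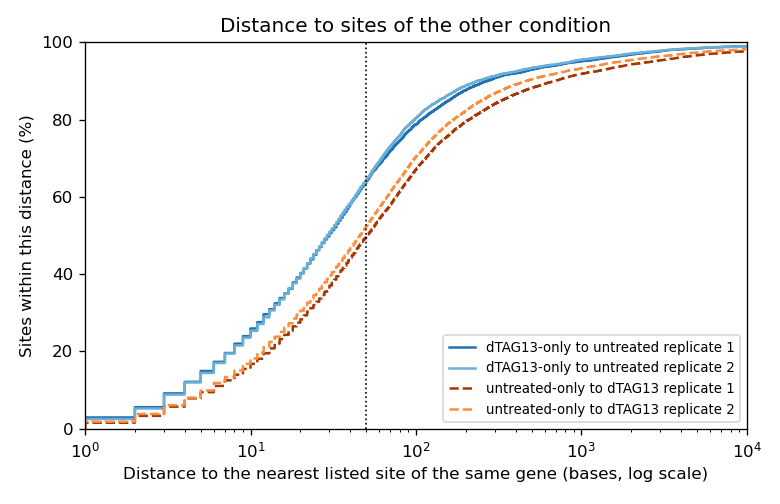
Cumulative share of sites (y axis, percent) within a given distance of the nearest listed site of the same gene and strand in 1 library of the other condition (x axis, bases, log scale). The dotted line marks 50 bases, where the dTAG13-only sites reach 64.2% and 64.6% and the untreated-only sites 49.8% and 52.5%.

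Gene coverage, one deposited value per gene and library, was close to the reads at the sites: members had a median of 0.904 and 0.927 times their gene's coverage. The members' genes had a coverage value in both untreated libraries for 7328 of the 7392 sites. Reads at the members' own positions in the untreated libraries are not in the tables, so the part of local coverage in their absence was not tested.

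Host genes were well covered. Of 13426 genes listed in both dTAG13 libraries, 4324 (32.2%) hosted a member. The share was 3.05% of 1343 genes with a mean dTAG13 coverage below 50, 18% at 50 to 100, 49.8% at 100 to 200 and 58.1% of the 2228 genes at 200 or more. The number of members per untreated-only site also went up with coverage, from 0.210 to 0.250, 0.378 and 0.579. Protein-coding genes by the RefSeq table held 6750 members, and 35.3% of them were hosts. Long noncoding RNA genes held 62 (13.2% hosts) and pseudogenes 522 (20.2% hosts), where reads may belong to a copy. Most hosts, 2605, had 1 member, 983 had 2 and 736 had 3 or more.

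Most host genes also held untreated-only sites. Of the 4324 hosts, 3419 (79.1%) also held untreated-only sites, which is 45.2% of the 7560 genes that did. Untreated-only sites outnumbered members in 2017 hosts (46.6%), members outnumbered them in 1414 (32.7%) and the numbers were equal in 893 (20.7%). Host genes held 100036 and 109826 listed sites after dTAG13 and 131575 and 135447 before.

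Ddx5, Hnrnpa3 and Hnrnpu held the most members. Ddx5, an RNA helicase of splicing and transcription, and Hnrnpa3, an hnRNP protein, had 11 members each, and Hnrnpu, a nuclear matrix hnRNP, had 10. In Ddx5 the 11 members spanned 5104 bases, from chr11:106672265 to chr11:106677369 (minus strand). The lowest and highest levels were 11.4% and 35.4% in dTAG13 replicate 1 and 10.4% and 21.4% in dTAG13 replicate 2, and each had an untreated site within 34 bases. Ddx5 held 1 untreated-only site, and its listed sites numbered 47 and 44 in the untreated and 75 and 63 in the dTAG13 libraries. Its gene coverage, not scaled to library depth, was 837 and 984 untreated and 497 and 713 after dTAG13. Both dTAG13 values of coverage lay below both untreated values, and after centring on the median gene the log2 change in limma was -0.53 ± 0.20 (SE, n = 2 per group), which did not pass (adjusted p 0.380). Ddx5 had more listed sites in both dTAG13 libraries at a lower unscaled coverage, but its members are among those sites. Genes were named here for their members, so higher numbers of listed sites after dTAG13 follow in part from that choice.

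In Hnrnpa3 the 11 members lay within 7623 bases from chr2:75492032 (plus strand), beside 4 untreated-only sites. The levels spanned 10.5% to 52.1% in the first dTAG13 library and 10.3% to 47.4% in the second. Its listed sites numbered 79 and 59 untreated and 101 and 95 after dTAG13, where the latter again include the members that the gene was named for. For Hnrnpu the numbers were 106 and 121 untreated and 122 and 125 after dTAG13, and it held 7 untreated-only sites. Across the hnRNP genes, 17 of 20 were hosts, with 60 members and 79 untreated-only sites, and 8 of 11 SR splicing factor genes were hosts, with 21 and 37. At a coverage of 200 or more, where 58.1% of all genes were hosts, these were 12 of 15 hnRNP genes and 8 of 9 SR genes.

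The other 7 of the 10 leading hosts had 8 or 9 members. Cltc encodes the clathrin heavy chain, Ddb1 a subunit of CUL4 ubiquitin ligases, Exo1 an exonuclease of mismatch repair, Fubp1 a DNA- and RNA-binding regulator of Myc, Spin1 a reader of methylated histones and Cbx5 the heterochromatin protein HP1 alpha. Thap12 was the only 1 of the 10 with more untreated-only sites (13) than members (9). In Exo1 the 9 members spanned 10.3% to 38.5% in the first dTAG13 library and 10.1% to 45.6% in the second, beside 4 untreated-only sites. Its gene coverage of 106 and 151 after dTAG13 lay above the 85.1 and 104 of the untreated libraries. In Spin1 the highest level was 73.6% in the first dTAG13 library and 71.9% in the second, at different members. The other dTAG13 library had 31.4% and 10.6% at these. In Cltc the highest were 48.2% and 75.6%, again at different members, where the other dTAG13 library had 10.7% and 17.8%. In Fubp1 the same member was highest in both, at 54.3% and 68.4%. Cbx5 was 1 of 4 genes with 8 members and came first by name.

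**Figure D5:**
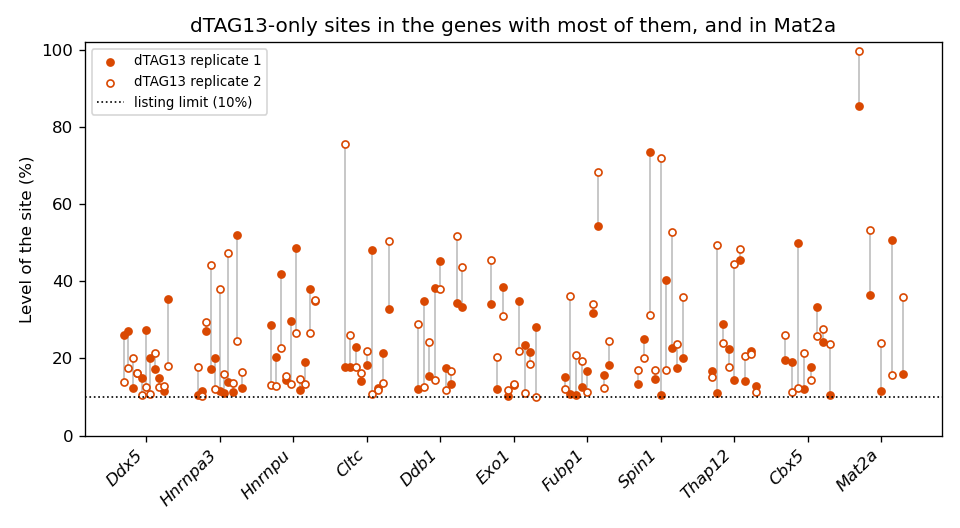
Level (y axis, percent) of each dTAG13-only site in dTAG13 replicate 1 (filled) and replicate 2 (open), joined by a line, in the 10 genes with most such sites and in Mat2a (x axis). In Ddx5 all levels are below 40%, and 1 site of Mat2a is at 85.6% and 99.8%.

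Among genes with at least 5 members, their share of listed sites was highest in Dtymk, the thymidylate kinase gene. In Dtymk it was 24.5% over both dTAG13 libraries (6 members, 21 and 28 listed sites). Its member at chr1:93722644 (minus strand) was at 25.5% of 161 and 16.6% of 823 reads. Next were Slc35b2, a transporter of the sulfate donor PAPS (23.3%, 7 members), the predicted gene Gm1848 (23.3%, 5 members), 2610524H06Rik (22.2%, 5 members) and the tubulin pseudogene Tubb4b-ps1 (21.7%, 5 members). Gm1848 and Tubb4b-ps1 can share reads with copies and are uncertain. Slc35b2 had 33 and 27 listed sites after dTAG13 and 23 and 24 before, and its gene coverage was 159 and 249 after and 138 and 142 before. The log2 coverage change in limma was 0.59 ± 0.21 (SE, n = 2 per group, adjusted p 0.364).

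Mat2a, whose mRNA carries METTL16 hairpins and encodes the enzyme that makes S-adenosylmethionine, had 5 members and 3 untreated-only sites. The member at chr6:72410044 (minus strand) was at 85.6% of 270 reads in dTAG13 replicate 1 and 99.8% of 451 reads in dTAG13 replicate 2, the highest mean (92.7% ± 10.1, SD, n = 2) among the m6A machinery genes. An untreated library listed a site 21 bases away. This member lay in a stretch of high sites that all 4 libraries listed. The site at chr6:72410155 was at 73.7% and 72.6% without and 76.1% and 63.3% with dTAG13. The one at chr6:72410270 was at 85.5% and 71.4% without and 79.9% and 83.3% with it, and chr6:72411233 was at 79.7% and 77.9% without and 73.3% and 85.2% with it. The groups overlapped at all 3. At chr6:72409936 both dTAG13 levels (71.9% and 51.0%) were above both untreated levels (34.4% and 49.8%), and the quasi-binomial test (dispersion moderated by limma) gave an adjusted p of 0.704. The other 4 members of Mat2a ranged from 11.5% to 53.3%. Whether the member at chr6:72410044 is a METTL16 site was not tested.

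Among the other m6A machinery genes, 12 of 19 were hosts, and Mettl3 held 0 members and 0 untreated-only sites. With Mat2a the list of 20 had 13 hosts (65%), 39 members and 56 untreated-only sites, against 32.2% hosts over all genes listed in both dTAG13 libraries. By mean dTAG13 coverage, hosts were 1 of 6 genes at 50 to 100, 5 of 6 at 100 to 200 and 7 of 8 at 200 or more. Over all genes these shares were 18%, 49.8% and 58.1%, and the list was not tested. The readers Ythdf1, Ythdf3 and Ythdc1 had 4, 5 and 4 members, Ythdf2 had 1 and Ythdc2 had 0. Of the writer complex, Virma and Cbll1 had 2 each and Rbm15b had 1, while Mettl14, Wtap, Zc3h13 and Rbm15 had 0. The gene of the separate enzyme METTL16 had 0. The demethylase genes Alkbh5 and Fto had 3 and 4. In Alkbh5 replicate 1 was higher at every member: 64.8% against 19%, 79.5% against 19.8% and 96.2% against 39.7%, the last with 26 and 73 reads. In Fto 1 member, chr8:92394442 (plus strand), was at 38.4% in dTAG13 replicate 1 and 100% in dTAG13 replicate 2. The members of the list had a median mean level of 24.3%, and 26 of 39 were below 40% in both libraries.

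Retinal regulator genes were hosts in 10 of 11 cases, with 32 members and 34 untreated-only sites, and Fgf15 held 0 members. Over all genes the host share was 32.2%, and 58.1% at a coverage of 200 or more, where 8 of the 11 lay. Their members were low, with a median mean level of 18.1%, 27 of 32 below 40% in both libraries and 26 of 32 within 50 bases of an untreated site. Otx2, a homeobox factor of eye and forebrain, had 7 members over 1097 bases, spanning 11.5% to 25.0% in the first dTAG13 library and 10.8% to 33.7% in the second, beside 5 untreated-only sites. The member at chr14:48895284 (minus strand) in Otx2 was at 25.0% of 248 reads and 26.4% of 341 reads. Six6 and Lhx2, both eye-field factors, had 5 members each. In Lhx2 the site at chr2:38243409 (plus strand) was at 13.6% in dTAG13 replicate 1 and 78.5% in dTAG13 replicate 2, whereas chr2:38259040 was at 19% and 17.2%. In Sox2, a progenitor factor, chr3:34705240 (plus strand) was at 24% and 33.6%, and in Pax6 the only member, chr2:105506123 (plus strand), was at 14.3% and 18%. Rax, Six3, Hes1 and Sfrp2 had 2 or 3 members each, and Nr2e1 had 1. Coverage summed over the list was 5633 and 6704 without and 3824 and 5609 with dTAG13, unscaled. The order of the groups depended on the scaling. In units of the median gene's coverage it was 68.2 and 79.7 without and 50.1 and 57.4 with dTAG13, but per 1000000 reads at listed genic sites it was 123 and 139 without and 144 and 141 with dTAG13. No direction is therefore given for the list. For any gene's coverage in such bulk samples, fewer cells of a type and less RNA per cell cannot be told apart.

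Immediate-early genes, which are switched on within minutes by growth factors and stress and make short-lived mRNA, held few members. Of the 10 genes on the list, 7 were listed in both dTAG13 libraries and 1 of them was a host. Of the 7, 4 had a coverage of 50 to 100, where 18% of all genes were hosts, and 3 had 100 to 200, where 49.8% were. The list held 1 member, in Klf4 (15.4% of 130 reads and 19.6% of 168 reads), and 30 untreated-only sites. Its listed sites numbered 54 and 64 after dTAG13 and 160 and 220 before. Fosb had 0 and 0 after and 16 and 31 before, and Fos had 0 and 1 after and 24 and 27 before. Unscaled coverage had no common direction over the 7 genes, and the libraries differed in depth, so none is given. In Dusp1 it was 68.4 and 94.5 after and 130 and 160 before. In Klf6 it was 109 and 85.8 after and 84.8 and 75.9 before, and in Egr1 the groups overlapped. These genes were named after their values were seen. Genes with no listed site have no coverage value, so the part of expression in these numbers was not tested.

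Other gene groups were counted in the same way, each beside 32.2% hosts over all genes. Of the DNA replication genes, 13 of 21 were hosts, with 29 members and 64 untreated-only sites, led by Mcm3 and Mcm5 of the replicative helicase with 4 members each. Of the cytosolic ribosomal protein genes, 29 of 80 in both dTAG13 tables were hosts (43 members, 48 untreated-only sites). Of the Zfp zinc finger genes, 74 of 320 were hosts (110 and 350), and of the histone genes 9 of 27 (14 and 11). Predicted Gm genes had 354 hosts of 1951 (456 and 843) and genes named as pseudogenes 78 of 304 (125 and 173). At a coverage of 200 or more, where 58.1% of all genes were hosts, 4 of 5 DNA replication genes and 20 of 60 ribosomal protein genes were. At that coverage hosts were also 4 of 8 Zfp, 5 of 13 histone, 151 of 440 Gm and 44 of 134 pseudogene-named genes. Of the markers of other cell types, Emx2, Nanog, Mitf and Tubb3 held 1 member each, at mean levels from 15.1% (Nanog) to 57.6% (Emx2). No list was tested, and the host share follows coverage as given above.

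Gene coverage, which the choice of members did not use directly, was compared with limma on log2 values centred on the median gene, over 12508 genes with a value in all 4 libraries. None of these genes passed an adjusted p of 0.05 (0% called, smallest adjusted p 0.363), and 0 of the 4264 tested host genes did. At an unadjusted p under 0.05, 534 hosts (12.5%) were lower with dTAG13, against 8.34% of all genes tested, and 118 (2.77%) were higher, against 4.4%. The median log2 change was -0.15 in hosts and -0.07 over all genes. Host genes were not, as a group, better covered after dTAG13: 66.3% of them had a negative change, against 56.7% of all genes. Hosts had a median coverage of 154 and 163 without and 117 and 161 with dTAG13. Since hosts are the better covered genes, the difference from all genes moves with coverage, and its part was not tested.

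The unconverted share of genes was compared with limma on log2 odds, without centring. None of the 12508 genes passed (0% called, smallest adjusted p 0.369), and 0 of 4264 hosts did. At an unadjusted p under 0.05, 390 hosts (9.15%) were lower with dTAG13, against 11.2% of all genes, and 9 (0.211%) were higher, against 1.06%. Centred on the median gene, which takes out the shift common to all genes, 110 hosts were lower and 76 higher, and the median log2 odds change over hosts was 0.04 in place of -0.28. The median over hosts was 4.14% and 3.71% without and 3.13% and 3.25% with dTAG13. Both dTAG13 medians lay below both untreated medians, as over all genes (4.15%, 3.78%, 3.13% and 3.25%). The new listings thus lay in genes whose background was, in the median, lower after dTAG13. The part of the background in the members' listing was not tested.

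Host-gene sites no longer listed after dTAG13 have no level to compare. Sites listed in all 4 libraries, which are never members, had 10% or more in each and cover only part of the other sites of the host genes. Of 2321 such sites with at least 20 reads in each library, a quasi-binomial model, its dispersion moderated by limma, called 51 lower (2.2%) and 2 higher (0.0862%) with dTAG13 at an adjusted p under 0.05. In host genes 34 of 678 sites (5.01%) were lower and 0 were higher. At an unadjusted p under 0.05, 87 host-gene sites (12.8%) were lower, against 5.95% of all sites tested, and 41 (6.05%) were higher, against 3.4%. Only 1191 of the 2321 sites were genic, as all host-gene sites are, so these shares do not compare like sites. Unadjusted shares over genic sites alone were not taken. On log2 odds limma called 29 lower and 0 higher. Over all genic sites tested, 49 of 1191 (4.11%) were lower. By untreated level, the median change was -59.3 points at the 42 host-gene sites of 90% or more (18 called lower), and the 54 at 40 to 90% had -37.1 points (14 called). The 582 at 10 to 40% had 0.478 points (2 called). In genic sites outside host genes these medians were -15.0 (37 sites), -7.02 (60 sites) and 0.598 points (416 sites). The difference between hosts and the rest was not tested. A site that fell below 10% in a dTAG13 library was not listed there and left this set. The medians at 10 to 40% therefore do not show that low sites kept their level. With Fisher's exact test on summed replicates, which ignores the spread between replicates, 303 host-gene sites passed (181 lower and 122 higher). Without either dTAG13 library none passed (0 of 678 without dTAG13 replicate 1 and 0 without dTAG13 replicate 2), and 16 and 18 passed without untreated replicate 1 and 2.

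Falls and new listings met within the same short stretch at a few positions. Of the 49 genic sites that were called lower, 6 (12.2%, Wilson 95% interval 5.73 to 24.2%) had a member within 50 bases, against 91 of 1142 (7.97%, 6.54 to 9.68%) of the other tested genic sites. An untreated-only site lay as near to 5 of the 49 (10.2%, 4.44 to 21.8%) and to 143 of the 1142 (12.5%, 10.7 to 14.6%). A link between falls and new listings was not tested. The 6 sites with a member nearby lay in Smim15, Cox7a2l, Txnl4a, Fen1, 2610524H06Rik and Ankrd49 and are named after their values were seen. In 2610524H06Rik the site at chr5:114960584 (minus strand) fell from 100% ± 0 to 14.2% ± 2.72 (SD, n = 2, quasi-binomial adjusted p 0.00522). The member 42 bases away, at chr5:114960542, was at 27.6% of 185 reads and 12.4% of 306 reads. In Ankrd49 chr9:14692443 (minus strand) fell from 97.3% ± 3.79 to 15.8% ± 6.00 (SD, n = 2, quasi-binomial adjusted p 0.0229), and 23 bases away the member was at 46.5% of 258 and 11.6% of 181 reads. In Fen1, the flap endonuclease gene, chr19:10177069 (minus strand) fell from 96.0% ± 5.24 to 12.9% ± 2.65 (SD, n = 2, quasi-binomial adjusted p 0.0115), and the member 30 bases away was at 24.7% of 170 and 10.0% of 219 reads. In all 6 the member was higher in dTAG13 replicate 1.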

How the data were processed

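Each library had 1 deposited site table. Per the file headers, the deposited counts are A and G reads and A reads per site, not normalised. The deposited fractions are the level, equal to A reads over all reads for 100% of the sites, and the conversion rate of the gene. The coverage signal is one deposited value per gene and library, not scaled to depth. The p-value and adjusted p-value of each site are the authors'. Per the labels' processing list, the submitters' processing notes name mm10. The contig names are those of GRCm39, and 8.32% of 7380 members fell in the GRCm38 interval of their gene, so no reference coordinates were used. Aligner, caller and duplicate handling are not given in the sources used here. Reads summed over listed sites ran from 30102136 to 54905380. Reads may include PCR duplicates, so Wilson 95% intervals cover counting error only.

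Members and lists were chosen with earlier results of these data known. Distances use the same chromosome, strand and gene name. Gene coverage and unconverted share were tested with limma 3.58.1 in R 4.3.3. Shared sites were tested with a quasi-binomial logistic model, with a dispersion of at least 1 moderated by squeezeVar of limma, by its two-sided F test on deviance. Benjamini-Hochberg adjustment ran over all features tested, at a threshold of 0.05. Both tests were tested on simulated data. RefSeq gave a gene type for 4313 of 4324 host genes. Named were the 10 genes with most members, the 10 highest members (50 or more reads, 1 per gene), the 5 deepest, the 5 highest untreated-only sites, the 5 genes with the highest member share (at least 5 members), the retinal and m6A lists, Mettl3 and Mat2a, and hosts that passed a gene test, of which there were 0. Some of the genes so named are not reported here.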

Additional observations from a re-analysis of the deposited data

How the results depend on the processing

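The number of dTAG13-only sites was 7392 and the ratio to untreated-only sites 0.385. The number stayed within 1.5-fold under 5 of 6 alternatives and was 3960 with at least 100 reads. The ratio did so under 7 of 8 and was 0.0943 for sites of 90% or more in both libraries (chosen after the data were seen). The median level of 20.5% was 18.4% with at least 50 and 16.7% with at least 100 reads, and the median excess of 17.1 points was 15.1 and 13.4 points. Leaving out 1 dTAG13 library gave 19.9% to 21.1% and 16.5 to 17.7 points. The share near an untreated site, 83.5% within 50 bases, was 41.6% within 10, 92.5% within 100 and 78.2% for untreated sites with at least 50 reads, and 64.2% to 64.6% with 1 untreated library. Gene coverage called 0 hosts at an adjusted p under 0.05 under 7 of 8 alternatives and 2 hosts without centring, where the median of all genes shifted by -0.15 (log2). The unconverted share called 0 under all 9 alternatives run. The 34 shared sites called in host genes became 303 with Fisher's exact test on summed replicates and 0 to 18 without 1 library. With the replicate number as a block 0 shared sites were called. Same-numbered libraries deviated together little (r 0.04 over shared sites, 0.00 over gene coverage), so the numbers give no pairing. For the changes with library, block and centring the cause was not tested. Levels of members with few reads are the least precise.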
